A study of Sus scrofa with 22 samples.

Results

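PLCB1, PLCB2, PLCB3 and PLCB4 encode the phospholipase C beta enzymes, and GNAQ and GNA11 encode the alpha subunits of the Gq and G11 proteins that switch those enzymes on. The 6 genes were taken by symbol from read counts of pig cerebellum, a part of the brain with a central role in posture and motor control, and each matched 1 of the 31907 gene identifiers in the tables. The set was chosen because of measured differences between operated groups in these same libraries, so every BDL against SHAM value of the 6 genes below is a description and carries no p. The animals were newborn piglets of the species Sus scrofa, of no stated breed or genotype. In the 11 BDL animals, 7 female and 4 male, the bile duct was ligated, which stops bile from leaving the liver. The 11 SHAM animals, 5 female and 6 male, had the surgery without ligation. Both groups were operated on at day 8 of life and followed for 3 weeks, and 1 library of total RNA was made from each cerebellum. The study asked how blocked bile flow early in life affects the brain and balance, and the 6 genes are followed here across treatment, sex, body weight and animal number.

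Many receptors for transmitters and hormones act through Gq and G11 alpha subunits. The active subunit binds phospholipase C beta, which splits the membrane lipid PIP2 into IP3, which releases calcium from internal stores, and diacylglycerol, which activates protein kinase C. In the rodent cerebellum, Plcb4 is known from Purkinje cells, the output neurons of the cortex, and Plcb1 from granule cells, which feed them. In mouse, Plcb3 and Plcb4 mark complementary stripes of Purkinje cells, and Plcb2 is known mainly from blood-forming and taste cells. Gnaq is the main alpha subunit of this class in mouse Purkinje cells, with Gna11 alongside it. These are descriptions from rodents and were not measured here, since each library is the whole tissue.

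On the pig build Sscrofa11.1, PLCB1 (ENSSSCG00000007056) lies on chromosome 17 at 17007197 to 17745314. PLCB4 (ENSSSCG00000007058) is its neighbour at 17915984 to 18402540, with 170669 bases and no other annotated gene between them. PLCB2 (ENSSSCG00000004779) lies on chromosome 1 at 131005408 to 131031864, and PLCB3 (ENSSSCG00000013034) on chromosome 2 at 7844931 to 7860183. GNAQ (ENSSSCG00000033763) lies on chromosome 1 at 230607469 to 230906988, beside its paralog GNA14 at a distance of 62345 bases. GNA11 (ENSSSCG00000029279) lies on chromosome 2 at 75439405 to 75456855, only 5595 bases from its paralog GNA15. The positions come from a RefSeq gene table matched by symbol.

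Libraries held 14811464 to 20046909 gene counts, 15377014 to 19126743 of them in BDL. Markers of granule cells and Purkinje cells were present in every library, with summed levels of 7470 to 8771 CPM (counts scaled to library size) in BDL against 7186 to 9490 CPM in SHAM for 15 granule markers and 3089 to 4650 CPM in BDL against 3197 to 4225 CPM in SHAM for 16 Purkinje markers. The first principal component of all 14994 genes kept after the count filter carried 14.8% of the variance. BDL replicates 2, 4 and 8, all female, stood apart at its low end, between -38.0 and -27.4, while the other 19 libraries lay at -15.2 or above. Results that turn on these 3 libraries are also given without them, an alternative chosen after seeing the data. In whole tissue, fewer cells of a type and less RNA per cell cannot be told apart. No transcript lengths were at hand, so differences in CPM between genes say nothing of which transcript is more abundant, and a ratio of 2 genes is compared only between animals.

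PLCB1, the enzyme known from granule cells, was lower in BDL cerebella. Its level ran from 88.9 CPM through a median of 110 CPM to 150 CPM in BDL animals, against 110, 134 and 164 CPM in SHAM animals. The groups overlapped, but 10 of 11 BDL animals lay below the SHAM mean and 6 lay below the lowest SHAM animal. The means were 109 ± 16.3 CPM in BDL and 135 ± 15.9 CPM in SHAM (SD, n = 11 each). The BDL minus SHAM difference on the log2 scale, fitted with sex in the model, was -0.29 ± 0.08 (SE; 95% interval -0.45 to -0.14), or 0.817-fold. The highest BDL animal, replicate 7, a male at 150 CPM, was the exception to the direction, and without it the difference was -0.36.

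PLCB4, the enzyme known from Purkinje cells, was also lower in BDL, by a smaller factor. Its level ran from 190 CPM through a median of 208 CPM to 245 CPM in BDL, against 224, 241 and 252 CPM in SHAM. In BDL the animals fell into a lower set of 7, all below the lowest SHAM animal, and an upper set of 4 between 237 and 245 CPM that lay inside the SHAM range. The means were 216 ± 21.9 CPM in BDL and 240 ± 9.0 CPM in SHAM (SD, n = 11 each). The log2 difference was -0.16 ± 0.05 (SE; 95% interval -0.26 to -0.06), or 0.895-fold.

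PLCB3, which in mouse marks the Purkinje stripes that have little Plcb4, had the opposite sign. It ran from 34.2 CPM through a median of 37.4 CPM to 43.1 CPM in BDL, against 27.2, 35.6 and 41.1 CPM in SHAM. The groups overlapped widely, with 10 of 11 BDL animals above the SHAM mean and 4 SHAM animals below the lowest BDL animal. The means were 38.3 ± 2.73 CPM in BDL and 34.9 ± 4.29 CPM in SHAM (SD, n = 11 each). The log2 difference was 0.14 ± 0.06 (SE; 95% interval 0.0037 to 0.27).

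PLCB2 was close to the limit of what these libraries can measure, at 30 to 80 counts in BDL and 21 to 75 counts in SHAM. It ran from 1.74 CPM through 2.91 CPM to 4.56 CPM in BDL, against 1.34, 2.51 and 4.39 CPM in SHAM. The groups overlapped over nearly their whole ranges. The log2 difference of 0.22 ± 0.20 (SE; 95% interval -0.19 to 0.64) has an interval that includes both signs.

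GNAQ, the alpha subunit that activates the enzymes, had a wider range among BDL animals than among SHAM animals. It ran from 40.4 CPM through a median of 90.1 CPM to 112.6 CPM in BDL, against 73.1, 91.0 and 127 CPM in SHAM. The medians were close, and 4 BDL animals lay below the lowest SHAM animal. The means were 80.5 ± 23.3 CPM in BDL and 91.5 ± 15.7 CPM in SHAM (SD, n = 11 each). The log2 difference was -0.16 ± 0.14 (SE; 95% interval -0.46 to 0.14). Of the 4 low BDL animals, 3 were replicates 2, 4 and 8, at 40.4, 54.0 and 53.0 CPM, and without these 3 libraries the difference was 0.01 ± 0.10. The SD of GNAQ on the log2 scale was then 0.212 in the other 8 BDL animals and 0.237 in SHAM, against 0.470 in all 11 BDL animals.

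GNA11, the other alpha subunit, had the smallest spread of the set in BDL on the log2 scale. It ran from 103 CPM through a median of 109.7 CPM to 117 CPM in BDL, against 105, 112 and 122 CPM in SHAM. The groups overlapped over most of their ranges, with 8 of 11 BDL animals below the SHAM mean. The log2 difference was -0.04 ± 0.04 (SE; 95% interval -0.11 to 0.04).

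**Figure D1:**
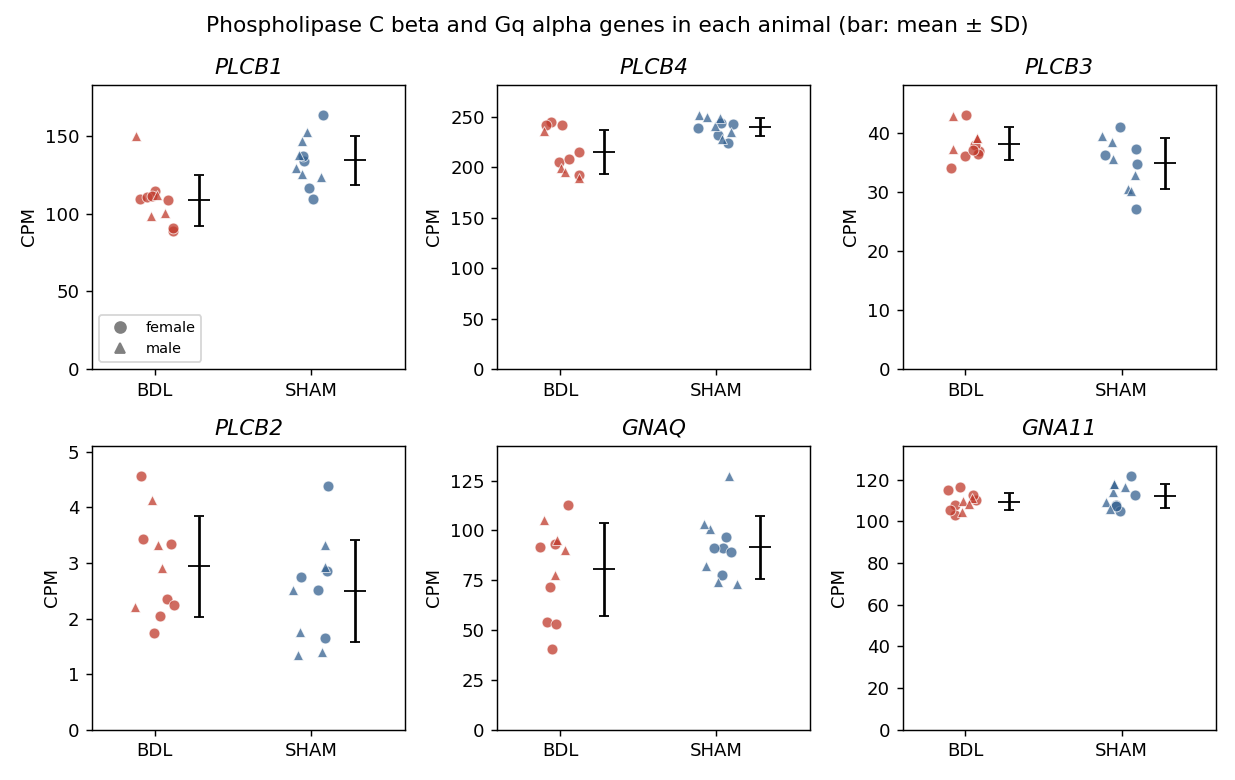
Level of each gene in CPM (vertical axes, from 0) in every animal, BDL left of SHAM, with circles for females, triangles for males, and a bar for the mean ± SD of 11 animals. PLCB1 and PLCB4 lie lower in BDL, PLCB4 and GNAQ are more widely spread in BDL, and GNA11 shows nearly the same range in both groups.

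These differences have to be read against the background of the comparison. Of 14994 genes tested for BDL against SHAM, 0% passed an adjusted p of 0.05 in edgeR's quasi-likelihood test with Benjamini-Hochberg adjustment, and 744 had an unadjusted p under 0.05. DESeq2 called 1 gene, with 769 at an unadjusted p under 0.05, and limma-voom called 0, with 725. The members' values rest on the same libraries, and their choice used this contrast, so nothing is read from where they stand among those genes. Over 33 alternative settings the PLCB1 difference ran from -0.36 to -0.20 and the PLCB4 difference from -0.24 to -0.06. These settings reuse the libraries from which the genes were chosen, so a kept sign is no further evidence of a difference.

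PLCB1 and PLCB4 were then set side by side within each animal. The ratio of their CPM values was 0.506 ± 0.0614 in BDL and 0.561 ± 0.0609 in SHAM (SD, n = 11 each), with a range of 0.435 to 0.635 in BDL against 0.490 to 0.672 in SHAM. The ranges overlapped over most of their length. Leaving out BDL replicates 2, 4 and 8 gave a log2 difference of -0.25 ± 0.08 for PLCB1 and -0.15 ± 0.05 for PLCB4. With the first principal component as a further term in the model, the values were -0.23 ± 0.07 and -0.15 ± 0.05. Neither step changed the sign of PLCB1 or PLCB4, but both reuse the libraries from which the genes were chosen.

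The spread of PLCB4 was itself unequal between groups. On the log2 CPM scale its SD was 0.145 among BDL animals and 0.0545 among SHAM animals, a ratio of 2.67. Only 0.527% of the genes kept had a higher ratio, and the median ratio over all genes was 1.04. GNAQ had a ratio of 1.99, exceeded by 4.18% of genes. PLCB1 had 1.19, PLCB2 0.830 and GNA11 0.760, while PLCB3 was tighter in BDL at 0.552, a ratio exceeded by 96.2% of genes. Without BDL replicates 2, 4 and 8, the PLCB4 ratio was 2.71 and the GNAQ ratio 0.898, so the wider spread of GNAQ in BDL rested on those 3 libraries and that of PLCB4 did not. No test was made of these ratios, and the spread of PLCB4 differed between ranges of animal number, as given next.

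PLCB4 was also laid out along the number that each animal carries in its label. What the number stands for is not stated, and a split at the middle of the numbers, 400 to 410 and 411 to 421, was used to look for a drift. Among animals 400 to 410, PLCB4 lay between 190 and 215 CPM in the 6 BDL animals and between 224 and 252 CPM in the 5 SHAM animals. The groups did not overlap, as was the case for 0.447% of all genes in that range, 67 of 14994, and for no other member. Among animals 411 to 421, PLCB4 lay between 195 and 245 CPM in the 5 BDL animals and between 232 and 250 CPM in the 6 SHAM animals. In that range 4 of 5 BDL animals were inside the SHAM values, and the exception was number 421, replicate 11, at 195 CPM. The log2 SD of PLCB4 was 0.0703 in BDL and 0.0665 in SHAM among animals 400 to 410. Among animals 411 to 421 it was 0.139 in BDL and 0.0379 in SHAM. The spread was thus nearly equal within the lower numbers and wider in BDL within the higher numbers, which include number 421.

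Within the ranges, the log2 difference of PLCB4 was -0.24 ± 0.07 among animals 400 to 410 and -0.06 ± 0.06 among animals 411 to 421. PLCB1 gave -0.32 ± 0.11 and -0.20 ± 0.11 in the same order. PLCB3 gave 0.12 in both. The test of the difference between ranges was added after the values had been seen. For PLCB4 that interaction was 0.18 ± 0.09, with an unadjusted p of 0.0491 and an adjusted p of 1 by edgeR's quasi-likelihood test with Benjamini-Hochberg adjustment. For PLCB1 it was 0.15 ± 0.16, with an adjusted p of 1 by the same test. That interaction called 0% of 14994 genes, and 446 had an unadjusted p under 0.05. The PLCB4 difference was thus larger in the lower numbers, but not beyond what the adjusted test passes.

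**Figure D2:**
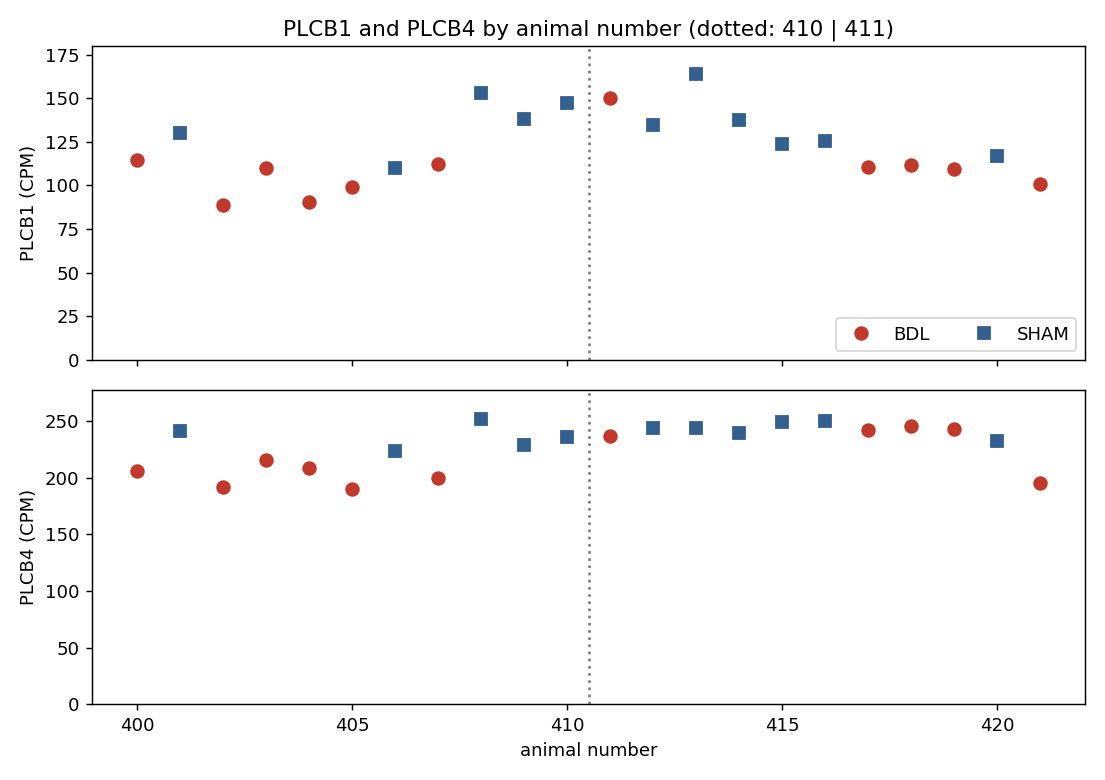
PLCB1 (upper panel) and PLCB4 (lower panel) in CPM against the animal number of the label, with BDL as circles and SHAM as squares and a dotted line between 410 and 411. Left of the line every BDL animal lies below every SHAM animal for PLCB4, and right of it 4 of 5 BDL animals lie among the SHAM animals.

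In females, the PLCB1 mean was 105 ± 10.6 CPM in BDL and 132 ± 20.9 CPM in SHAM (SD, n = 7 and 5). In males it was 115.5 ± 23.9 CPM in BDL and 136 ± 12 CPM in SHAM (SD, n = 4 and 6). The fitted log2 differences were -0.33 ± 0.10 in females and -0.24 ± 0.12 in males, so the direction was the same in both sexes. PLCB4 averaged 222 ± 21.5 CPM in BDL females and 237 ± 8.58 CPM in SHAM females. In males, PLCB4 averaged 205 ± 21.3 CPM in BDL and 242.5 ± 9.19 CPM in SHAM. The PLCB4 differences were -0.10 ± 0.07 in females and -0.24 ± 0.07 in males. PLCB1 thus had the larger difference in females and PLCB4 the larger in males.

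Whether the difference between BDL and SHAM itself differed between sexes was tested as an interaction, a contrast that the choice of genes did not use. The test was edgeR's quasi-likelihood test with Benjamini-Hochberg adjustment, in which 0% of 14994 genes passed and 689 had an unadjusted p under 0.05. DESeq2 and limma-voom also called 0, with 736 and 727 at an unadjusted p under 0.05. None of the 6 members passed. The female minus male value was -0.09 ± 0.15 for PLCB1 (95% interval -0.41 to 0.22, adjusted p = 0.946 by edgeR). For PLCB4 it was 0.15 ± 0.10 (95% interval -0.06 to 0.35, adjusted p = 0.917 by edgeR). PLCB2 averaged 2.82 ± 1.0 CPM in BDL females and 2.83 ± 0.989 CPM in SHAM females, but 3.15 ± 0.806 CPM in BDL males and 2.21 ± 0.832 CPM in SHAM males. Its interaction was -0.52 ± 0.40 with an adjusted p of 0.917 by edgeR. For GNAQ it was -0.25 ± 0.29 with an adjusted p of 0.926 by edgeR. Without BDL replicates 2, 4 and 8 the GNAQ value turned to 0.08 ± 0.20, the PLCB1 value was 0.0005 ± 0.16 and the PLCB4 value 0.19 ± 0.10, each with an adjusted p of 1 by edgeR. The intervals are wide enough that sex differences of the size of the treatment difference are not excluded for any of the 6 members.

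The sexes were also compared directly, with treatment in the model. In this contrast 0.0600% of genes, 9 of 14994, passed edgeR's quasi-likelihood test, and none of them was a member. Of these 9 genes, 8 were higher in females and 1 was lower. The count filter took its group size from treatment, 11 animals, so genes with counts in only the 10 males were left out. With no count filter, 31 genes passed. GNAQ averaged 80.2 ± 21.4 CPM in females (n = 12) and 92.9 ± 17.1 CPM in males (n = 10), a log2 difference of -0.19 ± 0.14 with an adjusted p of 0.913 by edgeR. The 3 libraries that stood apart are all from females, and without them the GNAQ difference was -0.04 ± 0.10, with an adjusted p of 0.989 by edgeR. PLCB1 averaged 116 ± 20.5 CPM in females and 128 ± 19.6 CPM in males, and after treatment was accounted for the difference was -0.09 ± 0.08 with an adjusted p of 0.916 by edgeR. PLCB4 averaged 228 ± 18.4 CPM in females and 228 ± 23.8 CPM in males, with a difference of 0.03 ± 0.05 and an adjusted p of 0.957 by edgeR. PLCB2, PLCB3 and GNA11 had differences between -0.02 and 0.10, with adjusted p from 0.974 to 0.996 by edgeR.

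Body weight, labelled without a unit, was 2044 ± 313 in BDL and 2035 ± 273 in SHAM (SD, n = 11 each). Per SD of weight, with sex and treatment in the model, PLCB2 differed by 0.24 ± 0.10 on the log2 scale, with an unadjusted p of 0.026 and an adjusted p of 0.623 by edgeR's quasi-likelihood test. The enzyme gene with the lowest counts was therefore the member with the strongest slope on weight, and it did not pass. GNAQ had a slope of 0.11 ± 0.08 with an adjusted p of 0.780 by edgeR. PLCB1, PLCB3, PLCB4 and GNA11 had slopes between -0.01 and 0.03. In this contrast 0% of 14994 genes passed, with 1108 at an unadjusted p under 0.05, while DESeq2 called 8 genes, with 1175 at an unadjusted p under 0.05, and limma-voom 0, with 1132. Without BDL replicates 2, 4 and 8, edgeR called 23 genes for weight, none of them a member, and the PLCB2 slope was 0.20 ± 0.12 with an adjusted p of 0.972 by edgeR.

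**Figure D3:**
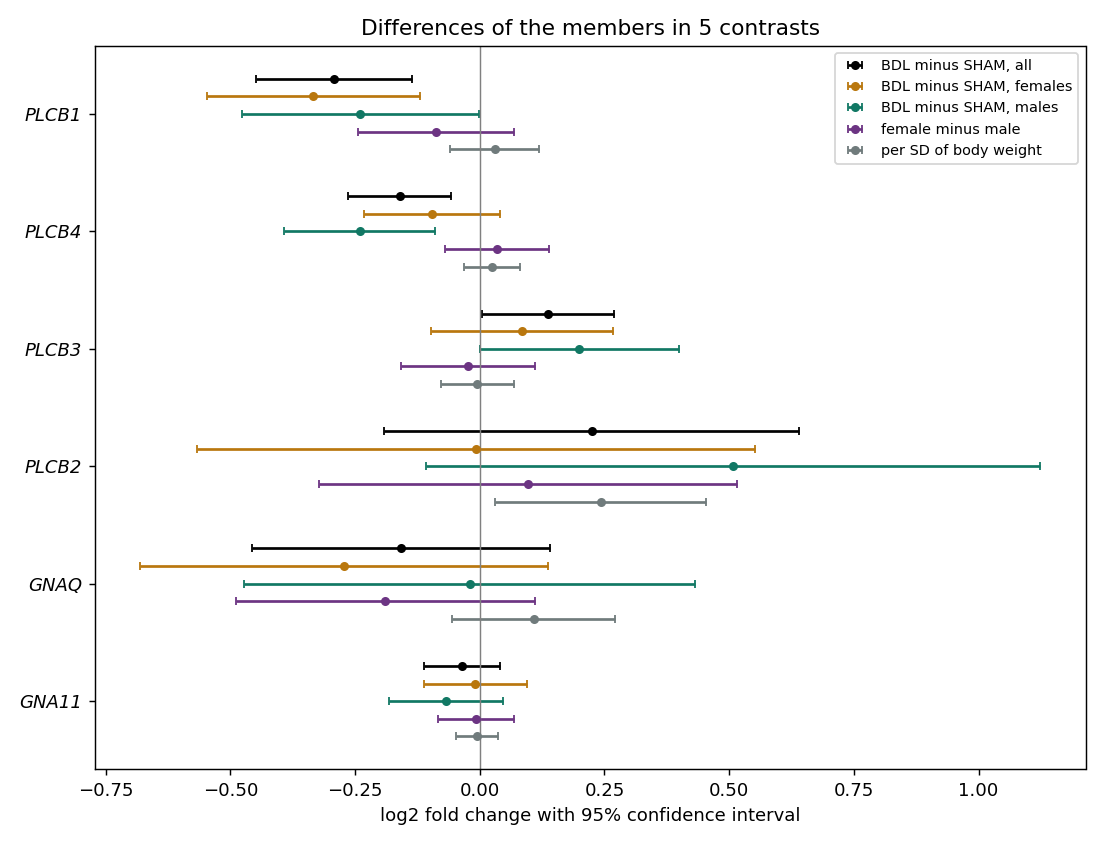
Log2 fold change of each gene with its 95% confidence interval in 5 contrasts of the edgeR fits, drawn from top to bottom for each gene as BDL minus SHAM in all animals, in females and in males, female minus male, and the slope per SD of body weight. The PLCB1 and PLCB4 points for BDL minus SHAM lie left of 0 in both sexes, and PLCB2 and GNAQ have the widest intervals.

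The next question was whether the members vary together from animal to animal inside a treatment group, where the BDL against SHAM contrast does not enter. Over the 15 pairs in each group, 30 relations in all, none passed a two-sided permutation test with 100000 resamples after Benjamini-Hochberg adjustment. PLCB1 and PLCB4 had Pearson's r of 0.57 and Spearman's rho of 0.45 in BDL (n = 11; permutation p = 0.0585 and 0.164, adjusted 0.464 and 0.707). In SHAM the same pair had r of 0.42 and rho of 0.27 (n = 11; permutation p = 0.199 and 0.419, adjusted 0.745 and 0.943). Without the 2 animals farthest from the median of PLCB1, r was 0.43 in BDL and 0.09 in SHAM. The neighbours on chromosome 17 thus leaned the same way in both groups, and in SHAM that lean rested on 2 animals.

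GNAQ and GNA11, the alpha subunits of the set, had r of -0.69 and rho of -0.73 in BDL (n = 11, permutation p = 0.0199 and 0.0147, adjusted 0.464 and 0.440). Without BDL replicates 2, 4 and 8, r was -0.66 and rho -0.60 (n = 8; permutation p = 0.0733 and 0.132, adjusted 0.550 and 0.803). In SHAM they had r of -0.22 and rho of -0.13 (n = 11; permutation p = 0.518 and 0.715, adjusted 0.921 and 0.943). The ratio of GNAQ to GNA11 ran from 0.352 to 1.09 in BDL and from 0.620 to 1.17 in SHAM. Its lowest values were those of BDL replicates 2, 8 and 4, at 0.352, 0.470 and 0.489. PLCB3 and PLCB4, which mark complementary stripes in mouse, had r of -0.36 and rho of -0.31 in BDL (n = 11; permutation p = 0.280 and 0.356, adjusted 0.765 and 0.943). In SHAM they had r of 0.08 and rho of 0.13 (n = 11; permutation p = 0.814 and 0.712, adjusted 0.961 and 0.943), so no opposed variation of these enzymes was detectable with 11 animals a group.

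Each member was next set against the mean log2 CPM of 5 lists of cell type markers, 60 relations over both groups. For PLCB1 and the granule cell markers, no relation was detectable, with r of 0.16 and rho of 0.15 in BDL (n = 11; permutation p = 0.660 and 0.652) and r of -0.04 in SHAM (n = 11; permutation p = 0.912). PLCB4 had r of 0.29 and rho of 0.42 with the Purkinje cell markers in BDL (n = 11; permutation p = 0.374 and 0.203) and r of 0.19 and rho of 0.25 in SHAM (n = 11; permutation p = 0.571 and 0.450). Neither relation passed. PLCB2 leaned with the microglia and macrophage markers in both groups, with r of 0.72 and rho of 0.67 in BDL (n = 11; permutation p = 0.0126 and 0.0277, adjusted 0.152 and 0.215). In SHAM, PLCB2 had r of 0.76 and rho of 0.81 with them (n = 11; permutation p = 0.0072 and 0.00391, adjusted 0.144 and 0.117), falling to r of 0.50 without the 2 animals farthest from the median of the marker score.

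Of the 60 relations, 2 passed on Pearson's r, both of GNAQ in BDL. GNAQ had r of 0.96 and rho of 0.87 with the astrocyte and Bergmann glia markers (n = 11; permutation p = 1e-05, the smallest the resampling can give, and 0.00083, adjusted 0.0006 and 0.0498). With the Purkinje cell markers it had r of 0.84 and rho of 0.70 (n = 11; permutation p = 0.00076 and 0.0205, adjusted 0.0228 and 0.215). In SHAM, GNAQ had r of 0.16 with the astrocyte markers (n = 11; permutation p = 0.653) and r of 0.72 with the Purkinje markers (n = 11; permutation p = 0.0125, adjusted 0.152). Without the 2 animals farthest from the median of the marker score, r in BDL was 0.93 for astrocyte markers (adjusted permutation p = 0.0324) and 0.72 for Purkinje markers (adjusted permutation p = 0.311). Without BDL replicates 2, 4 and 8, r was 0.85 and 0.76, and neither passed (n = 8; adjusted permutation p = 0.0969 and 0.160). Whether the relation differs between BDL and SHAM was not tested.

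Counts of genes that varied closely with a member were made for the 6 members only, and GNAQ had the highest count in both groups. In BDL, GNAQ had a Pearson's r beyond 0.8 in size with 1652 of 14993 other genes, 11%, and in SHAM with 542, 3.62%. Without BDL replicates 2, 4 and 8, it was 1056 genes, 7.04%, over 8 BDL animals. A cut of 0.8 is passed more easily with 8 animals than with 11, so that share is not comparable with the others. Over the same 8 animals PLCB4 had 565 such genes, 3.77%, PLCB2 366, 2.44%, and PLCB1 230, 1.53%. Over all animals, the same counts were 115 in BDL and 196 in SHAM for PLCB1, and 76 in BDL and 64 in SHAM for PLCB4. The lowest BDL values of GNAQ, 40.4, 54.0 and 53.0 CPM, fell in the 3 libraries at the low end of the first principal component. In the other 8 BDL animals GNAQ lay between 71.6 and 112.6 CPM. GNAQ is 1 of the genes from which the component was computed, and what sets the 3 libraries apart was not tested.

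**Figure D4:**
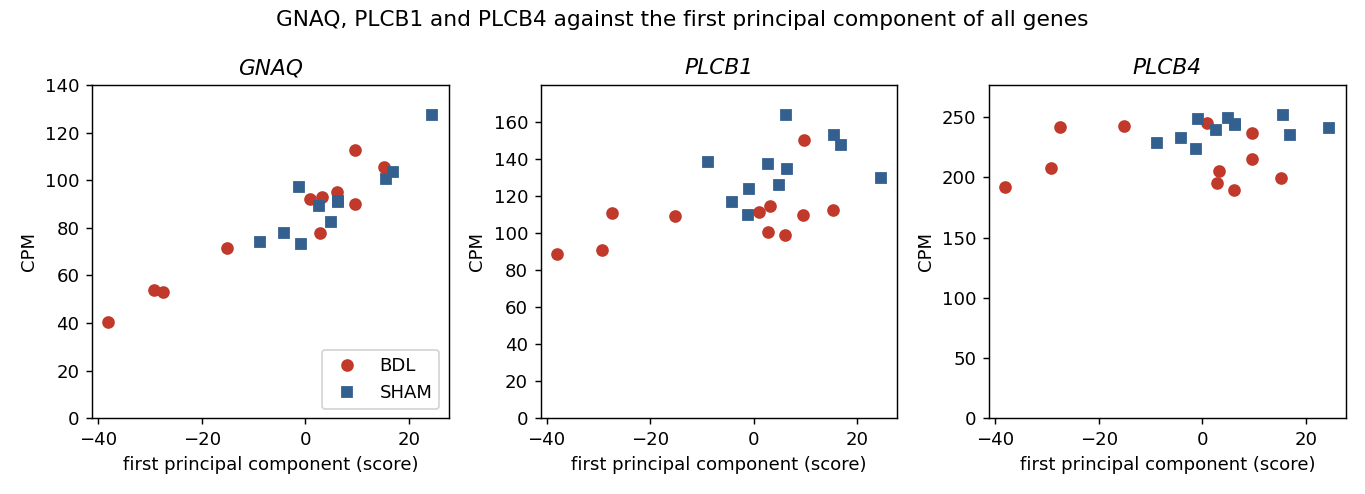
CPM of GNAQ, PLCB1 and PLCB4 (vertical axes, from 0) against the score on the first principal component of 14994 genes, with BDL as circles and SHAM as squares. GNAQ climbs along the component in both groups, with BDL replicates 2, 4 and 8 at the lower left, whereas the PLCB4 values of these 3 libraries spread over the BDL range and PLCB1 is low in 2 of the 3.

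The genes most like PLCB1 were ranked by the mean of the Pearson correlations within BDL and within SHAM, over 11 animals each. They were TMEM65 at 0.87, VEZT at 0.83, PRKAA1 at 0.82, YTHDF3 at 0.82 and OSGIN2 at 0.81. PRKAA1 encodes a catalytic subunit of the energy sensor AMPK, YTHDF3 a reader of methylated RNA and VEZT a cell junction protein. For PLCB4 they were CADPS2 at 0.77, CPLANE1 at 0.77, ATP6V1C1 at 0.76, CCDC180 at 0.72 and CADM1 at 0.71. CADPS2 encodes a factor for release of dense-core vesicles, ATP6V1C1 a subunit of the vesicle proton pump and CADM1 a synaptic adhesion protein. The lists share no gene, and each name was picked from all genes as the highest, so the values are descriptions.

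The rest of the pathway was followed through 6 lists of 136 genes, of which 127 matched an identifier and 119 passed the count filter. Of these 119, 49 were higher and 70 lower in BDL, 58.8% lower against 49.7% of all genes. Their median log2 difference was -0.01, against 0.0006 over all genes. None passed edgeR's quasi-likelihood test, 10 had an unadjusted p under 0.05, and every gene named from these lists by rank had an adjusted p of 0.881 by that test.

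Upstream, 25 of 33 listed Gq-coupled receptors were measured, 9 of them higher and 16 lower in BDL, with a median of -0.10. EDNRA, an endothelin receptor, averaged 6.59 ± 1.08 CPM in BDL and 8.31 ± 1.47 CPM in SHAM, a log2 difference of -0.34 ± 0.11. CHRM3, a muscarinic acetylcholine receptor, differed by -0.49 ± 0.23 at a mean of only 1.52 CPM in BDL and 2.16 CPM in SHAM. NTSR1, a neurotensin receptor, differed by -0.25 ± 0.13. The 3 receptors were thus on the lower side in BDL, and none passed.

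At the level of the G protein, 21 of 25 partners and regulators were measured, 11 higher and 10 lower, with a median of 0.0025. RGS2, which speeds the shut-off of Gq, differed by -0.12 ± 0.07, GRK3, a receptor kinase, by -0.12 ± 0.07, and RGS7 by -0.07 ± 0.04. The paralogs beside GNAQ and GNA11, named because of that position after their values were seen, had few counts. GNA14 averaged 6.28 ± 0.865 CPM in BDL and 5.85 ± 1.03 CPM in SHAM, and GNA15 averaged 3.60 ± 1.05 CPM in BDL and 3.24 ± 0.662 CPM in SHAM. Their differences were 0.12 ± 0.11 and 0.15 ± 0.16, with adjusted p of 0.890 and 0.911 by edgeR. Among 11 other phospholipases C, 6 were higher and 5 lower, and PLCD3, of the delta class, had 53.2 ± 7.49 CPM in BDL and 46.4 ± 8.29 CPM in SHAM, a difference of 0.20 ± 0.09. PLCH1, of the eta class, differed by -0.20 ± 0.11 and PLCXD3 by -0.09 ± 0.07.

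Downstream of the enzymes, the IP3 and calcium arm had 7 genes higher and 7 lower of 14 measured. INPP5A, which removes a phosphate from IP3, averaged 354 ± 22.3 CPM in BDL and 333 ± 21.8 CPM in SHAM, a difference of 0.09 ± 0.05. ITPKA, an IP3 kinase, differed by 0.16 ± 0.10. ITPR1, the IP3 receptor of Purkinje cells, averaged 1134 ± 310.3 CPM in BDL and 1161 ± 206 CPM in SHAM, a difference of -0.01 ± 0.13. None of these passed, and the arm as listed was evenly split.

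The diacylglycerol arm had 6 genes higher and 15 lower of 21 measured, with a median of -0.03. CNR1, the cannabinoid receptor that answers to a diacylglycerol product, averaged 327 ± 36.0 CPM in BDL and 385 ± 48.3 CPM in SHAM. All 11 BDL animals lay below the SHAM mean, and the difference was -0.25 ± 0.07. Its unadjusted p was 0.00131 and its adjusted p 0.881 by edgeR's quasi-likelihood test, so CNR1 did not pass. PRKCE and PRKCB, protein kinase C isoforms, differed by -0.12 ± 0.05 and -0.10 ± 0.06. In the list for PIP2 supply and recycling, 10 of 27 genes were higher and 17 lower. SYNJ1, a lipid phosphatase of synaptic vesicles, differed by -0.13 ± 0.05, INPP4B, which acts on a related lipid, by -0.19 ± 0.08 and PITPNM2, a lipid transfer protein, by -0.16 ± 0.07. For INPP4B, too, no BDL animal reached the mean of the SHAM animals. CNR1 and INPP4B were named by their p in this same contrast. The share of all genes with such a count was not computed.

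**Figure D5:**
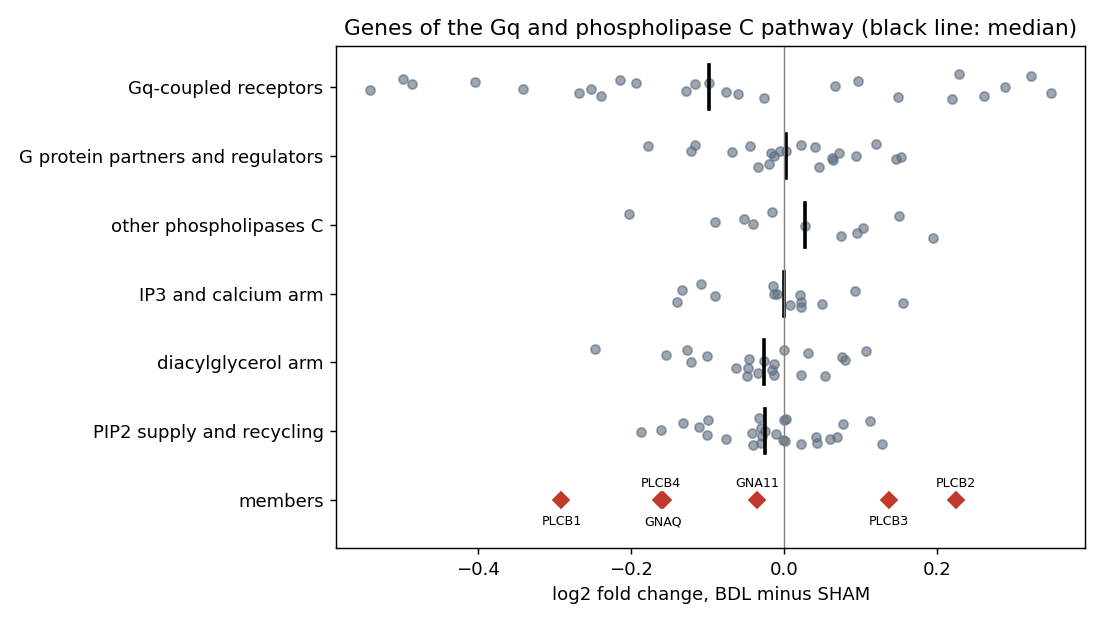
Log2 fold change of BDL minus SHAM (horizontal axis) for the 119 measured genes of 6 pathway lists (grey points, 1 row a list, black line at the median) and for the 6 members (red diamonds). The medians of the lists lie between -0.10 and 0.03, with the receptors most widely spread, and PLCB1 is the member farthest left.

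Cell type markers did not move with PLCB1 and PLCB4 in a uniform way. Of 15 granule markers, 4 were higher and 11 lower in BDL, with a median log2 difference of -0.03, and of 16 Purkinje markers 8 were higher and 8 lower, with a median of 0.0084. Of the granule markers 2, KCND2 at -0.27 ± 0.11 and GABRA6 at -0.10 ± 0.05, had an unadjusted p under 0.05 by edgeR's test. Of the Purkinje markers 1 did, DAB1 at -0.12 ± 0.04. All of these were lower in BDL and were named after their values were seen. No granule or Purkinje marker passed after adjustment. Named as those with the most counts in their lists, CBLN1 and CBLN3, secreted synaptic proteins of granule cells, differed by 0.0047 ± 0.06 and 0.10 ± 0.06, and PCP4 of Purkinje cells by 0.13 ± 0.08. For the stripe genes, ALDOC, which marks stripes rich in Plcb3 in mouse and was added after its values were seen, was at 2.53 ± 0.363 CPM in BDL and 2.07 ± 0.729 CPM in SHAM. Those means are below the 2.94 CPM in BDL and 2.49 CPM in SHAM of PLCB2. ALDOC was therefore also close to the limit of measurement. SLC1A6, a glutamate transporter, averaged 195 ± 31.0 CPM in BDL and 187 ± 27.0 CPM in SHAM, and EBF2, which in mouse marks the stripes rich in Plcb4, had 5.26 ± 1.16 CPM in BDL and 5.50 ± 1.28 CPM in SHAM. None of the 3 passed the test. Markers of other cell types were uneven, with 9 of 9 oligodendrocyte markers and 4 of 4 tested blood cell markers higher in BDL. Those of astrocytes had 3 higher and 5 lower, and those of microglia 5 higher and 5 lower. Inhibitory interneuron markers had 3 higher and 5 lower, unipolar brush cell markers 2 higher and 1 lower, and endothelial and mural markers 2 higher and 6 lower. Among these other cell types, the smallest unadjusted p by edgeR were 0.0143 for RGS5, a pericyte gene, and 0.0241 for CALB2. CALB2 encodes a calcium-binding protein of unipolar brush cells. The log2 differences of RGS5 and CALB2 were -0.25 ± 0.09 and -0.32 ± 0.13, each with an adjusted p of 0.881 by edgeR. The part of cell composition in the values of the 6 genes was not tested.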

How the data were processed

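RNA of 22 pig cerebella was sequenced as read pairs, per the labels' protocols. Each animal has 1 deposited table of the authors' raw counts, whole numbers of reads for each Ensembl identifier. The submitters' processing notes name Trim Galore, HISAT2, HTSeq, DESeq2 and the build Sscrofa11.1; versions, annotation and strand setting: not given in the sources used here. Reads of overlapping antisense genes may be included and close paralogs may have lost shared reads. The 5 closing lines of each table that belong to no gene, 29.9% to 34.6% of counted reads, were left out. Symbols were matched for 15029 of 31907 identifiers.

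Genes were kept by filterByExpr of edgeR 4.0.16 (R 4.3.3; minimum count 10, minimum total 15), which left 14994, all 6 members among them. Counts were scaled by TMM and tested by edgeR's robust quasi-likelihood test on sex and treatment, with Benjamini-Hochberg adjustment over all genes and a threshold of 0.05. Log2 CPM used a prior count of 2. Intervals are at 95% confidence. Correlations were computed in Python 3.11.15 with 100000 permutations. Alternatives were other scaling, no filter, DESeq2 1.42.0, limma-voom (limma 3.58.1), other covariates, number ranges and leaving out animals. The scripts were tested on simulated data.

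The 6 members, the gene lists and the tests were chosen with earlier results of these data known. Named genes are the members, the 3 genes with the smallest p of each pathway list, the 2 most abundant of marker lists and the 5 most like PLCB1 and PLCB4; others are said to be picked after their values were seen, and some genes the rule picks are not reported here. Replicate numbers follow deposition order and pair nothing. The labels name no litter, so littermates could not be accounted for, and every p-value treats the animals as independent.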

Additional observations from a re-analysis of the deposited data

How the results depend on the processing

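Over 33 alternatives the BDL minus SHAM log2 differences ran from -0.36 to -0.20 for PLCB1, -0.24 to -0.06 for PLCB4, 0.10 to 0.17 for PLCB3, 0.13 to 0.35 for PLCB2, -0.06 to -0.02 for GNA11 and -0.23 to 0.04 for GNAQ, which was above 0 in 2 of them, without BDL replicates 2, 4 and 8 (0.01) and with the first principal component as a term (0.04); both were chosen after seeing the data. DESeq2 called 1 gene for BDL against SHAM, 23 for female against male and 8 for body weight, against 0, 9 and 0 by edgeR. The count for female against male was 31 with no count filter and 7 to 26 on leaving out each animal. It was 21 or more without any 1 of the 12 females. The females are BDL replicates 1, 2, 3, 4, 8, 9 and 10 and SHAM replicates 2, 6, 7, 8 and 11. The count filter took its group size from treatment, 11 animals, so a gene with counts in only the 10 males was removed before testing. On leaving out each animal, the count for body weight was 0 to 9, with 9 without SHAM replicate 1 and 3 without BDL replicate 4. Leaving out 1 animal at a time gave female minus male values from -0.020, without SHAM replicate 2, to 0.20 for PLCB2, from -0.057 to 0.0066, without SHAM replicate 7, for PLCB3 and from -0.025 to 0.0040, without SHAM replicate 8, for GNA11, a change of sign each time. Of the 60 relations with marker scores, 1 passed without the 2 farthest animals, 1 on residuals after sex and 0 without BDL replicates 2, 4 and 8, which leaves 8 animals. Without these 3, 25 genes were called for female against male and 23 for body weight. The cause was not tested for any of these. No paired analysis was possible because the labels carry no number that pairs animals across groups. PLCB2, at 21 to 80 counts a library, is limited by depth, while each other member had at least 477 counts in every library.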
